A study of Mus musculus with 180 samples.

Results

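Guanylate-binding proteins (GBPs) and immunity-related GTPases (IRGs) are the interferon-inducible GTPases with which macrophages attack intracellular pathogens. The 8 genes described here, the GBPs Gbp2, Gbp3, Gbp5 and Gbp7 and the IRGs Igtp, Irgm1, Irgm2 and Iigp1, were taken by their symbols from the 45070 gene rows of a table of normalized exonic read counts. All 8 were among the 12714 genes tested, those whose normalized value averaged 10 or more. The table covers 180 RNA-seq samples of bone marrow-derived macrophages (BMDMs) grown from wild-type C57/BL6 male mice. The cells received either the solvent DMSO or a clinical kinase inhibitor (CKI, 58 in all), and 1 h later LPS at 10 ng/ml for a further 2 h, so the DMSO controls carry LPS too and the induction by LPS itself was not measured. Each CKI has 3 samples and DMSO has 6, in 2 sets of 3 numbered replicates. The labels do not say which CKIs belong to which DMSO set, and p-values measure the spread between these samples. Each CKI was used at a concentration set by its affinity for its own intended target, so concentrations differ between CKIs, and values of different CKIs stand side by side without a test between them.

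In macrophages exposed to LPS, Toll-like receptor 4 leads through the kinase TBK1 to the transcription of Ifnb1, the gene for interferon-beta. Secreted interferon-beta then acts on its receptor, whose kinases JAK1 and TYK2 signal to the nucleus, where transcription factors including IRF1 induce GBP and IRG genes. GBPs coat the vacuoles of parasites and the surface of cytosolic bacteria, and they promote inflammasome activation by caspase-11. Among the IRGs, Iigp1 is an effector that loads onto parasite vacuoles, whereas Igtp, Irgm1 and Irgm2 are regulators on the cell's own membranes that keep the effectors inactive there.

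The DNA just upstream of the genes carries the letters to which these factors are known to bind. RefSeq promoter windows of build GRCm38.p6 were matched by symbol for 7 of the 8 genes, all but Iigp1, and the 170 bases before the start site are printed for each, 5′ to 3′ on the gene's own strand, because the members are read below against Irf1. Capitals mark matches to GAAANNGAAA, the core of the interferon-stimulated response element (ISRE), on either strand, and to TTCNNNGAA, the core of the gamma-activated sequence (GAS), which reads the same way on both strands. The sequences lie upstream of Gbp2 at chr3:142620493-142620662 (+), Gbp3 at chr3:142559874-142560043 (+), Gbp5 at chr3:142496764-142496933 (+), Gbp7 at chr3:142530166-142530335 (+), Igtp at chr11:58199386-58199555 (+), Irgm1 at chr11:48871421-48871590 (-) and Irgm2 at chr11:58214807-58214976 (+).
Gbp2: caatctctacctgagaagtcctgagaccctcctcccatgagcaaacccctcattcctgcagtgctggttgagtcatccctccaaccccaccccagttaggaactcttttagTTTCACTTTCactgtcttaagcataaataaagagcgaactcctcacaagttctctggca
Gbp3: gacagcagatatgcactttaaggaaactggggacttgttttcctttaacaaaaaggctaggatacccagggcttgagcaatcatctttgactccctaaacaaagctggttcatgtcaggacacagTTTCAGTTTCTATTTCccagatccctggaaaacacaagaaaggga
Gbp5: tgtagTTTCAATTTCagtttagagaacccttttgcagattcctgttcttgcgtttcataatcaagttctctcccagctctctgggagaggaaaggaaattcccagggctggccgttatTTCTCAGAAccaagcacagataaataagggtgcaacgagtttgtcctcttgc
Gbp7: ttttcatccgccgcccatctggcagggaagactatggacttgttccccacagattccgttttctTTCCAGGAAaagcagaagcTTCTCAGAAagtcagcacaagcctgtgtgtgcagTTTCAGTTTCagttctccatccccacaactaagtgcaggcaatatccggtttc
Igtp: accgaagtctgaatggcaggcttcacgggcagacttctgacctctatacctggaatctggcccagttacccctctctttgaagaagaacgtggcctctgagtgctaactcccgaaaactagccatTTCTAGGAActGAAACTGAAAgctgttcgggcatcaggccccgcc
Irgm1: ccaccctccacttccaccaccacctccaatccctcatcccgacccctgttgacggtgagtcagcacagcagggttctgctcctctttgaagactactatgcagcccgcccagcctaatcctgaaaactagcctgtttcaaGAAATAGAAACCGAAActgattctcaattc
Irgm2: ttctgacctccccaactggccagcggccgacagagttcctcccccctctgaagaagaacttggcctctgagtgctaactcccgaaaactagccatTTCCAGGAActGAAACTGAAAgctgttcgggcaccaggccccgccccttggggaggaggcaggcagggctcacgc

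The ISRE core was found in the 300-base windows of 7 of 7 members, against 1131 of 32851 windows of all genes, or 3.44%. The GAS core was found in 4 of 7 (Gbp5, Gbp7, Igtp and Irgm2), against 2726 of 32851, or 8.3%. In Gbp3 and in Irgm1 a pair of ISRE matches overlap each other. In Igtp and Irgm2, which are neighbouring genes, the GAS match starts 11 bases before the ISRE match in both, and 108 of 140 aligned bases were identical (77.1%), with the Irgm2 window shifted by 30 bases. These are matches of letters and no measurement of binding.

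In the DMSO samples the members were expressed at unequal levels. Per kilobase of cDNA, the normalized value was 1554 ± 657 for Irgm1, 1081 ± 376 for Gbp2, 710 ± 254 for Igtp, 690 ± 160 for Irgm2, 484 ± 172 for Gbp3, 469 ± 148 for Gbp5, 156 ± 52.5 for Gbp7 and 105 ± 52.6 for Iigp1 (mean ± SD, n = 6). Compared within samples, Irgm1 exceeded Gbp2 by 1.42-fold in 6 of 6 samples (exact two-sided sign-flip test, p = 0.0312, the smallest possible with 6 samples, 0.0437 after adjustment over the neighbouring pairs). The steps from Gbp2 to Igtp (1.53-fold), from Irgm2 to Gbp3 (1.47-fold), from Gbp5 to Gbp7 (3.02-fold) and from Gbp7 to Iigp1 (1.59-fold) held in 6 of 6 samples too. Igtp and Irgm2 did not differ beyond their spread (Igtp higher in 2 of 6, exact p = 0.969), nor did Gbp3 and Gbp5 (1.03-fold, higher in 4 of 6, exact p = 0.656). The effector Iigp1 was the member with the lowest level, also before division by length (mean 339, against 876 for Gbp7). The regulator Irgm1 stood 15.6-fold above it per kilobase. The order rests on 1 cDNA length per gene, 2305 bases for Irgm1, 3021 for Gbp5 and 3231 for Iigp1. All transcripts of these genes hold more sequence (5807, 6803 and 5911 words of 51 bases). Another length could change the order, and the p-values do not measure this.

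The 4 GBP genes lie side by side on the plus strand of chromosome 3 (mm10), with Gbp5 at 142496934-142522344, Gbp7 at 142530336-142550151, Gbp3 at 142560044-142573213 and Gbp2 at 142620663-142638008. On chromosome 11, Igtp (58199556-58207592) and Irgm2 (58214977-58222783) are neighbours on the plus strand and Irgm1 (48865245-48871420) lies on the minus strand, and Iigp1 lies on chromosome 18 (60373616-60392634, plus strand). Values refer to all exons of a gene. Some members share sequence: of all 51-base words in their transcripts, 12.6% of those of Gbp7 also occur in transcripts of other genes (Gm43802 and Gbp3), 11.6% of those of Igtp (in Irgm2), 7.69% of those of Irgm2 (in Igtp) and 3.66% of those of Gbp3 (in Gbp7), against 0.362% for Irgm1. Gbp2 and Gbp3 also overlap genes on the opposite strand (Mir6381 and Gm40158), and whether the counting used strand is not given in the sources used here, so those reads cannot be told apart.

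The members were uneven among the DMSO samples. Gbp2 was 2930, 3087 and 1605 in set 1 (replicates 1, 2 and 3) and 4085, 2463 and 1754 in set 2. Iigp1 was 356, 445 and 131 in set 1 and 595, 321 and 184 in set 2. In both sets the replicate numbered 3 was the lowest of its set for Gbp2 and for Iigp1. Averaged over both sets, the replicates numbered 3 lay below the others by 1.84-fold for Gbp2, 1.83-fold for Gbp3, 1.94-fold for Gbp5, 1.82-fold for Gbp7, 1.8-fold for Igtp, 1.62-fold for Irgm1, 1.5-fold for Irgm2 and 2.68-fold for Iigp1. This spread sets the size of change that could be called: the median standard error of a log2 fold change (Log2FC) of a CKI against DMSO ran from 0.29 for Gbp7 to 0.56 for Iigp1. The sums of normalized values per sample were 9477340 to 12273349, and the share of mitochondrial transcripts in them was 0.525% to 4.47%, with a median of 1.93% in replicates numbered 1, 1.34% in those numbered 2 and 1.09% in those numbered 3. DMSO set 2 against set 1 gave 0 called members and 0 at an unadjusted p under 0.05 (limma; over all genes 0 called and 310 at an unadjusted p under 0.05). The macrophage markers were present throughout, with Csf1r, the receptor for the growth factor CSF1, at 24416 to 25418 in DMSO. The T cell marker Cd3e was at most 2 in any sample, and Ifng, the gene for the interferon made by lymphocytes, was 0 in 166 of 180 samples and at most 1 in the rest.

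**Figure D1:**
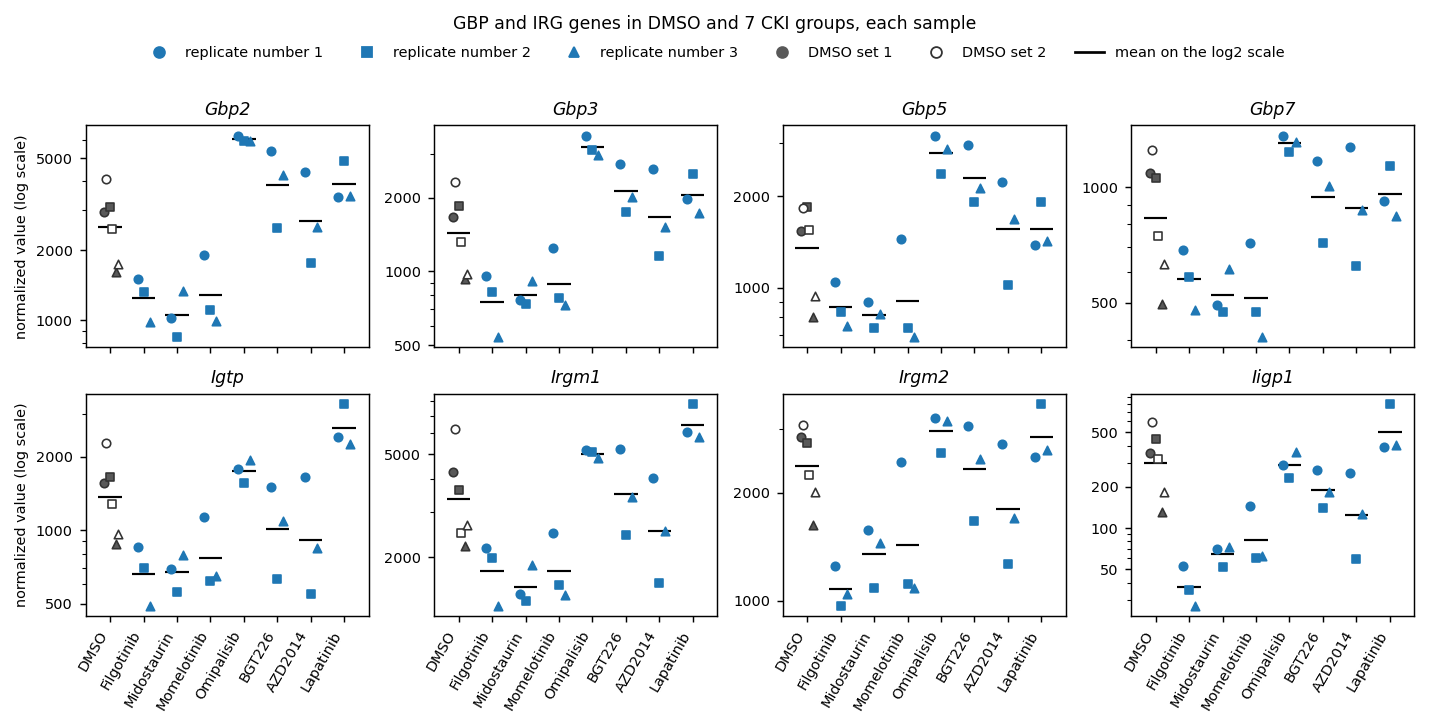
Normalized value of each of the 8 members (log axis) in the DMSO samples (filled for set 1, open for set 2) and in 7 CKIs, 1 point per sample shaped by replicate number, with a line at the mean of the log2 values. The 3 Filgotinib samples lie below the 6 DMSO samples for Gbp2, Igtp, Irgm1, Irgm2 and Iigp1, and the 3 Omipalisib samples lie above them for Gbp2, Gbp3 and Gbp5.

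Changes against DMSO were tested with limma on log2(normalized value + 1) over all 12714 genes, and a member was called at a Benjamini-Hochberg adjusted p below 0.05. On this scale the fold change of a low gene is understated. Each of the 8 members was compared with DMSO in each of the 58 CKIs, and 5 of these comparisons were called lower and 3 higher. Among all genes and CKIs, 1.65% were called lower and 2.52% higher. As a share of their comparisons, the members were thus called less often than all genes in both directions. The calls fell on 3 CKIs. Filgotinib lowered Iigp1, Irgm2 and Gbp3, Midostaurin lowered Iigp1 and Gbp2, and Omipalisib raised Gbp2, Gbp3 and Gbp5. Gbp7, Igtp and Irgm1 were not called for any CKI. In bulk RNA, fewer cells with a transcript and less of it per cell cannot be told apart.

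Filgotinib, a JAK1 inhibitor, had the lowest Log2FC over the 8 members of all CKIs (median -0.97, where the median of all genes was -0.04), and 8 of 8 were below 0. The members vary together and share the DMSO samples, so such a count of signs marks little, here and below. It was 8 of 8 below 0 also with CKIs without a call, SNS314, Poziotinib and XL413 among them. With Filgotinib, Iigp1 moved most. It was 53, 35 and 27 in the Filgotinib samples, below the 131 to 595 of DMSO in every sample. The Log2FC was -2.99 ± 0.56 (SE), or 7.95-fold lower (limma, adjusted p = 1.60e-05), and within replicate numbers 1, 2 and 3 the difference was -3.09, -3.40 and -2.48. The Iigp1 call held in 23 of 23 alternative analyses, with an adjusted p of 1.24e-07 to 0.00481.

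The regulator Irgm2 was 1250, 966 and 1044 with Filgotinib, below the lowest DMSO value of 1622. It fell by 2.19-fold (adjusted p = 0.00596), and the call was lost when all samples numbered 2 were left out (0.0876). Gbp3 was 957, 822 and 540, where DMSO ran from 932 to 2316, so a single Filgotinib sample lay within the DMSO range. Its Log2FC was -0.93 ± 0.34 (adjusted p = 0.038), and this call was kept in 9 of 23 alternatives. Without Filgotinib replicate 1, 2 or 3 the adjusted p of Gbp3 was 0.0501, 0.0749 and 0.209, without DMSO set 1 replicate 1 or 2 it was 0.0571 and 0.0754, and without DMSO set 2 replicate 1 or 2 it was 0.0825 and 0.0515. Leaving out all samples numbered 1, 2 or 3 gave 0.108, 0.238 and 0.0643.

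The other members did not pass the test. Gbp2, which is recruited to parasite vacuoles, was 1505, 1326 and 982 with Filgotinib (Log2FC -1.01 ± 0.40, adjusted p = 0.0597), and Igtp was 854, 701 and 490 (-1.03 ± 0.43, 0.0705). Irgm1 was 2173, 1992 and 1300 (-0.91 ± 0.42, 0.107). For each of these genes all 3 samples lay below all DMSO samples. Leaving out DMSO set 1 replicate 3, the lowest control, brought Gbp2 (0.0377) and Igtp (0.0475) under the threshold, as did leaving out DMSO set 2 replicate 3 for Gbp2 (0.0452). Gbp5, which promotes NLRP3 inflammasome assembly, was 1047, 836 and 748 (-0.64 ± 0.31, 0.134), and Gbp7 was 685, 582 and 480 (-0.53 ± 0.29, 0.187), both within the DMSO range in part. In all, 3 of 8 members were called lower with Filgotinib where 14.6% of all genes were, and 5 of 8 lay wholly below DMSO where 10.5% of all genes did. The neutrophil markers summed to 584 to 998 in these samples, within the DMSO range of 298 to 1008.

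The JAK inhibitors did not move the members equally far. Momelotinib, a JAK1 and JAK2 inhibitor, had a median Log2FC of -0.77 with 8 of 8 members below 0 and none called lower, where 0.409% of all genes were. Iigp1 was 144, 60 and 62 with Momelotinib (Log2FC -1.87 ± 0.56, 3.66-fold lower, adjusted p = 0.0973), with within-number differences of -1.67, -2.64 and -1.31. Blocked on the replicate number, Iigp1 was called (adjusted p = 0.0348), as the single member where 0.684% of all genes were called lower. Without DMSO set 1 replicate 3, it was called as well (0.0431). Gbp2 was 1910, 1108 and 988 (-0.98, 0.335) and Irgm1 was 2490, 1565 and 1435 (-0.92, 0.417). Momelotinib replicate 1 lay inside the DMSO range for 8 of 8 members.

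For the other JAK inhibitors the median over the members was -0.48 (Ruxolitinib), -0.27 (Pacritinib), 0.04 (Tofacitinib) and 0.09 (BMS911543), and no member was called. The lowest member with Ruxolitinib was Iigp1, at 127, 192 and 101 (Log2FC -1.15). Iigp1 was 222, 186 and 237 with Tofacitinib (-0.49), 281, 232 and 163 with Pacritinib (-0.45) and 194, 200 and 300 with BMS911543 (-0.40). TG100572, which the study used against TYK2, had a median of -0.56 and Iigp1 at 106, 302 and 96 (-1.04). Of these Iigp1 values, 2 of Ruxolitinib and 2 of TG100572 lay below the lowest DMSO value of 131, and the others lay within the DMSO range.

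Midostaurin, a multi-kinase inhibitor that the study used against TBK1, had a median Log2FC of -0.92 over the members, and 8 of 8 were below 0. Iigp1 was 70, 52 and 73, below every DMSO sample (Log2FC -2.21 ± 0.56, 4.61-fold lower, adjusted p = 0.00603). Within replicate numbers the difference was -2.70, -2.84 and -1.08. The dendritic cell markers, mostly Xcr1, summed to 45 to 54 in these samples, below the 61 to 92 of DMSO (the 1 tested marker was called lower in the blocked fit and not without the block), and their part in the result was not tested. The call was lost without Midostaurin replicate 2 (adjusted p = 0.0594), without all samples numbered 1 or 2 (0.0929 and 0.196) and against DMSO set 1 alone (0.0582). Gbp2 was 1019, 844 and 1336, below the lowest DMSO value of 1605, with 844 the lowest value of this gene in any of the 180 samples. Its Log2FC was -1.27 ± 0.40, or 2.4-fold lower (adjusted p = 0.0467). The Gbp2 call depended on which samples entered: the adjusted p was 0.15, 0.191 and 0.0785 without Midostaurin replicate 1, 2 or 3, 0.0735 and 0.0853 without DMSO set 1 replicate 1 or 2, 0.0968 and 0.0681 without DMSO set 2 replicate 1 or 2, and 0.218 and 0.44 without all samples numbered 1 or 2. It was kept without DMSO set 1 or set 2 replicate 3 (0.0283 and 0.0346) and without all samples numbered 3 (0.0224).

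Irgm1 was 1443, 1364 and 1866 with Midostaurin, also below every DMSO sample (Log2FC -1.12 ± 0.42, 2.17-fold lower, adjusted p = 0.117). Blocked on the replicate number, Irgm1 was called (0.0325) beside Gbp2 and Iigp1. Igtp was 693, 557 and 792 (-1.01, adjusted p = 0.185), and Irgm2 was 1569, 1082 and 1443 (-0.81, 0.146). Both lay below every DMSO sample, as did Gbp3 at 764, 739 and 915. In all, 2 of 8 members were called lower with Midostaurin, and 3 of 8 with the block, where 1.93% and 2.72% of all genes were, and 6 of 8 lay wholly below DMSO where 2.56% of all genes did. Side by side, Iigp1 was lowest with Filgotinib (38.3 ± 13.3), then with Midostaurin and then with Momelotinib, and the samples of these neighbours overlap: the highest Filgotinib sample was 53 and the lowest Midostaurin sample 52.

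**Figure D2:**
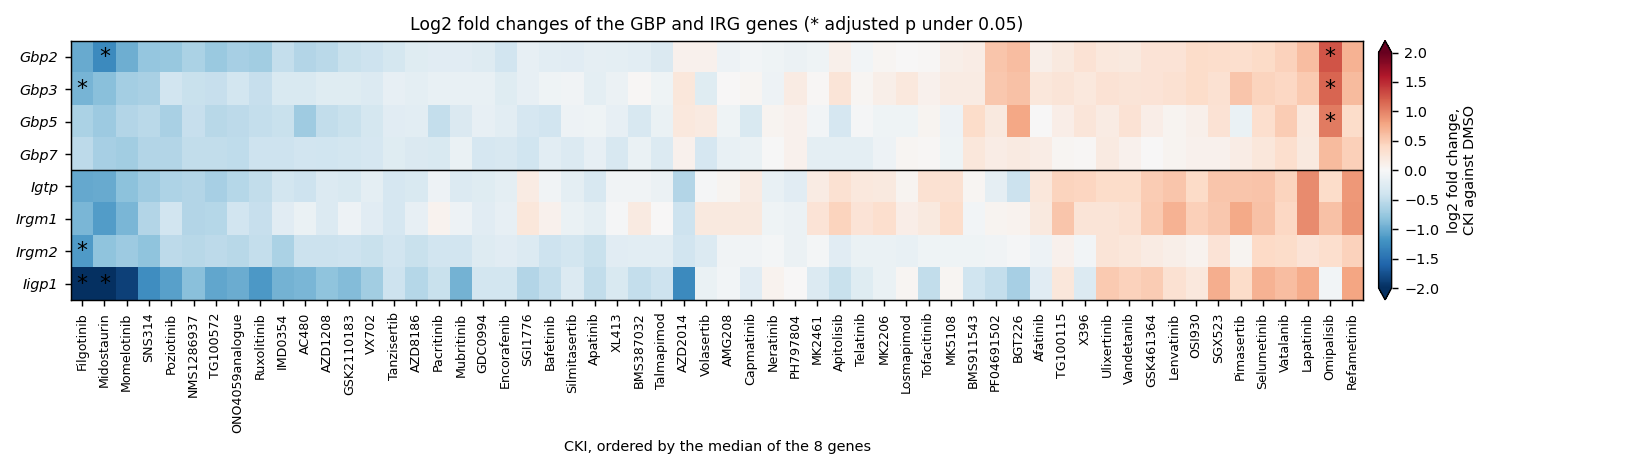
Log2FC against DMSO of each member (rows) for each of the 58 CKIs (columns, ordered by the median over the 8 members), with an asterisk on the 8 called values. Colours end at -2 and 2, so the Iigp1 values of Filgotinib (-2.99) and Midostaurin (-2.21) share the last blue.

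Omipalisib, an inhibitor of PI3K and mTOR, raised 3 of the 4 GBPs. Gbp2 was 6262, 5962 and 5914 with Omipalisib, above the highest DMSO value of 4085, and 6262 was its highest value in any of the 180 samples. The Log2FC was 1.26 ± 0.40 (adjusted p = 0.0127), with within-number differences of 0.86, 1.11 and 1.82. Gbp3 was 3582, 3136 and 2988 (1.17 ± 0.34, 0.00541) and Gbp5 was 3172, 2365 and 2857 (1.04 ± 0.31, 0.00761). Both were above every DMSO sample. Gbp7 was 1361, 1237 and 1307, where the highest DMSO value was 1246 (0.64 ± 0.29, 0.0895, and called without DMSO set 2 replicate 1). The dendritic cell markers summed to 114 to 162 with Omipalisib, above the 61 to 92 of DMSO, with the 1 tested marker, Xcr1, called higher, and their part in the result was not tested.

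The IRGs did not pass the test with Omipalisib. Igtp was 1786, 1556 and 1945 (Log2FC 0.37, adjusted p = 0.552), Irgm1 was 5176, 5088 and 4813 (0.58, 0.309), Irgm2 was 3223, 2578 and 3161 (0.33, 0.471) and Iigp1 was 291, 232 and 362 (-0.05, 0.959). The median was 1.11 over the GBPs and 0.35 over the IRGs. Thus 3 of 8 members were called higher where 17.5% of all genes were, and 3 of 8 lay wholly above DMSO where 14.8% of all genes did. Without all samples numbered 3, the numbers with the lowest DMSO values, none was called: the adjusted p was 0.154 for Gbp2, 0.0807 for Gbp3 and 0.203 for Gbp5. Without all samples numbered 2 it was 0.0735 for Gbp2 and 0.0513 for Gbp3, and without Omipalisib replicate 1 it was 0.052 for Gbp2 and 0.0555 for Gbp5.

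With BGT226, AZD2014 and PF04691502, other inhibitors of PI3K or mTOR, the median Log2FC of the GBPs (0.59, 0.15 and 0.37) was above that of the IRGs (-0.23, -0.49 and -0.13), without a call. With AZD8186 the medians were -0.23 and -0.37, and with Apitolisib (-0.05 and 0.04) and TG100115 (0.17 and 0.33) the GBPs were the lower. With BGT226, Gbp5 was 2963, 1916 and 2139, above every DMSO sample (Log2FC 0.77 ± 0.31), and its adjusted p of 0.05 did not pass, though it did without DMSO set 1 replicate 1 or 2 (0.0466 and 0.0324), without DMSO set 2 replicate 1 or 2 (0.0304 and 0.0488) and without all samples numbered 2 (0.0427). In the fit of all samples, 0 of 8 members were called higher where 24.1% of all genes were. Gbp2 was 5369, 2503 and 4240 with BGT226 (0.61, adjusted p = 0.255), whereas Igtp was 1505, 629 and 1089 (-0.43, 0.475) and Iigp1 was 266, 140 and 182 (-0.66, 0.389). With AZD2014, an mTOR inhibitor, Gbp2 was 4375, 1760 and 2521 (0.09), Igtp was 1645, 546 and 844 (-0.58) and Iigp1 was 253, 59 and 127 (-1.27 ± 0.56, adjusted p = 0.099, and 0.0455 without DMSO set 1 replicate 3 and 0.0492 without all samples numbered 3), with 0 of 8 members called lower where 13.5% of all genes were. With PF04691502 Gbp2 was 5365, 2685 and 3533 (0.56) and Igtp was 1929, 830 and 1082 (-0.18). For each gene given here, replicate 1 was the highest of the 3 samples of these CKIs.

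Within a sample, the log2 ratio of a GBP to an IRG had an SD over the DMSO samples of 0.04 to 0.40, depending on the pair. The pair Gbp2 to Igtp was chosen after its values were seen, as the tightest in DMSO of the 16 pairs of a GBP and an IRG, so its values are given as a description without a test. The log2 ratio of Gbp2 to Igtp was 0.89 ± 0.04 in DMSO (SD, n = 6, range 0.85 to 0.95). It was 1.83, 1.99 and 1.96 with BGT226, 1.81, 1.94 and 1.60 with Omipalisib, 1.48, 1.69 and 1.71 with PF04691502 and 1.41, 1.69 and 1.58 with AZD2014. Against DMSO the ratio was thus 2.06-fold, 1.86-fold, 1.67-fold and 1.59-fold higher. These 12 samples (1.41 to 1.99) lay above all other 168 samples, which ran from 0.39 to 1.26. The next CKI was Apatinib, with a mean difference from DMSO of 0.14 on the log2 scale.

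The narrow DMSO range meant that 33 CKIs did not overlap DMSO in this ratio, 4 above and 29 below, or 56.9%, so lack of overlap alone marks little here. The 29 lower ones differed by -0.34 to -0.12. Not every inhibitor of PI3K or mTOR raised this ratio. With Apitolisib, a PI3K inhibitor that the study used against JAK1, it was 0.71, 0.72 and 0.60 (difference -0.21). With AZD8186 the difference was 0.04. With Filgotinib, where both genes were low, the difference was 0.02. The ratio of Gbp3 to Igtp gave the same 4 CKIs on top, at differences of 1.01 for BGT226, 0.81 for Omipalisib, 0.80 for AZD2014 and 0.72 for PF04691502, with their 12 samples at 0.60 to 1.47 and all others at -0.48 to 0.51. Of the 16 pairs of a GBP and an IRG, 15 lay wholly above DMSO with AZD2014, 12 with BGT226, 12 with Omipalisib and 6 with PF04691502, and 0 with each of Apitolisib, AZD8186 and TG100115. Pairs above DMSO were not limited to inhibitors of PI3K and mTOR. There were 7 with Filgotinib, 6 with Midostaurin, 4 with Momelotinib and 3 with BMS911543. Counted by pair over all CKIs, those wholly above DMSO ran from 0 (Gbp5 to Irgm1) to 9 (Gbp5 to Iigp1). The 16 pairs reuse the same genes, which vary together. The counts of pairs are thus not independent of each other and are given without a test. Over the other 55 groups the ratio of Gbp2 to Igtp and the mitochondrial share correlated at r = -0.497, as a description of groups that were normalized together.

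**Figure D3:**
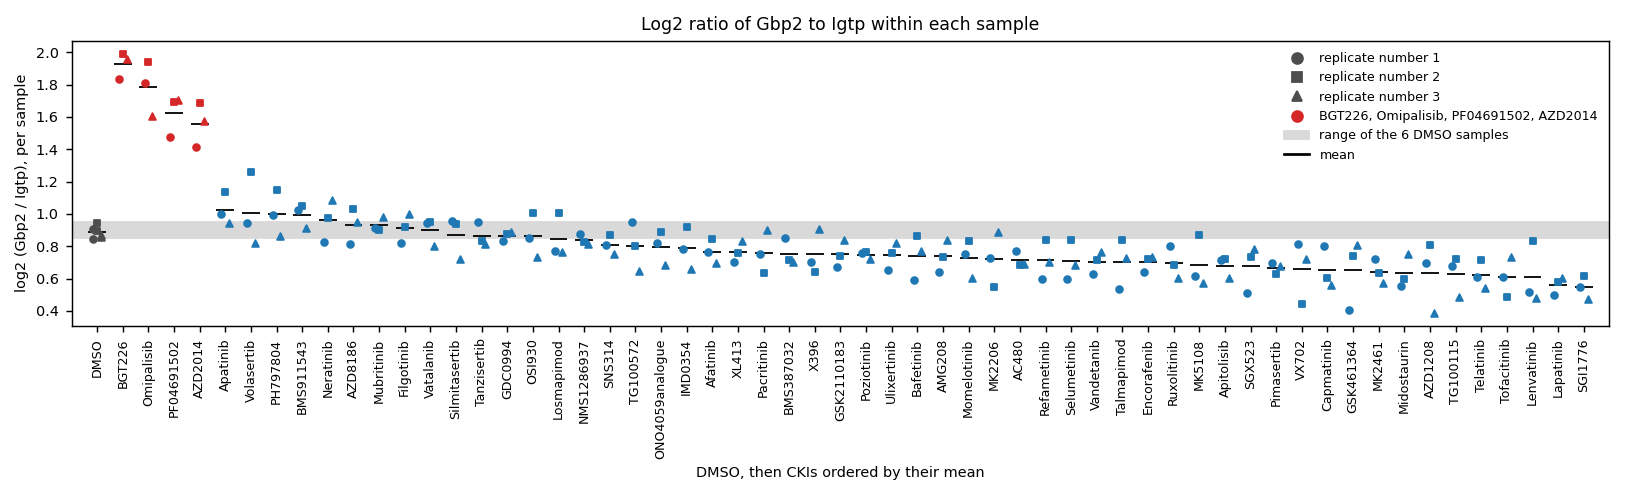
Log2 ratio of the Gbp2 to the Igtp normalized value within each sample, for each CKI and DMSO, 1 point per sample shaped by replicate number, with a line at the mean and a grey band over the DMSO range. The 12 samples of BGT226, Omipalisib, PF04691502 and AZD2014 lie at 1.41 to 1.99, above all other samples, and the 6 DMSO samples lie at 0.85 to 0.95.

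Lapatinib, an EGFR and ERBB2 inhibitor, had high values of the regulators Igtp and Irgm1. Igtp was 2411, 3276 and 2262, where the highest DMSO value was 2271 (Log2FC 0.94 ± 0.43, adjusted p = 0.0909). Irgm1 was 6056, 7769 and 5805, where the highest DMSO value was 6236 (0.95 ± 0.42, 0.0805). No member was called higher where 18.1% of all genes were. Blocked on the replicate number, both were called (0.0415 for Igtp and 0.0269 for Irgm1), 2 of 8 members where 24.6% of all genes were. The Lapatinib libraries had a mitochondrial share of 1.92% to 3.71%, against 0.759% to 1.94% in DMSO, and with that share and the block in the fit the Log2FC was 0.39 for Igtp (adjusted p = 0.501) and 0.32 for Irgm1 (0.528). Neutrophil markers summed to 1336 to 1540, against 298 to 1008 in DMSO, with 4 of 7 called higher, and their part in the result was not tested. Without DMSO set 2 replicate 1, the highest control, both regulators were called (0.0472 and 0.0348), as they were without all samples numbered 1 (0.0469 and 0.0305). Gbp2 was 3410, 4887 and 3433 (0.61, 0.25), and Iigp1 was 389, 800 and 406 (0.74).

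With IMD0354, Mubritinib and Lenvatinib no member was called. The medians were -0.43 with IMD0354, an IKK-beta inhibitor, -0.25 with Mubritinib and 0.28 with Lenvatinib. Over the 44 CKIs outside the 14 given in full, AZD2014, PF04691502 and the MEK inhibitors among them, the median ran from -0.68 with SNS314 to 0.67 with Refametinib, 29 of 44 were negative and 0 of their comparisons were called. The 3 MEK inhibitors had medians above 0, at 0.35 with Pimasertib, 0.42 with Selumetinib and 0.67 with Refametinib, and no member was called, though Gbp3 and Irgm1 were called higher with Pimasertib without all samples numbered 1. With Refametinib 8 of 8 members were above 0, from 0.36 for Gbp5 to 0.88 for Irgm1, where Pimasertib had Gbp5 at -0.13. The neutrophil markers summed to 1361 to 1560 with Pimasertib, 407 to 1854 with Selumetinib and 848 to 2277 with Refametinib (DMSO 298 to 1008), and their part in the result was not tested. Over all 58 CKIs, Iigp1 varied most (SD of the Log2FC 0.71, below 0 in 42) and Gbp7 least (0.29, below 0 in 36). Irgm2 was below 0 with 45 CKIs and Irgm1 with 27.

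By the median over pairs, correlations were higher among GBPs (0.921) and among IRGs (0.897) than between them (0.794), and the ranges overlapped. Over the 59 group means, Pearson's r was 0.861 to 0.971 for the 6 pairs of GBPs, 0.878 to 0.964 for the 6 pairs of IRGs and 0.639 to 0.89 for the 16 mixed pairs. The mitochondrial share correlated with the mean of the members at r = 0.464, with Irgm1 at 0.66, Igtp at 0.591 and Gbp5 at 0.171. All groups were normalized together, so these coefficients are descriptions.

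The members were then set beside Ifnb1 and Irf1, which stand above them in the pathway. With Filgotinib, Ifnb1 was 233, 183 and 137 (Log2FC 0.71, adjusted p = 0.196), where DMSO was 75 to 262. Irf1 was lower with Filgotinib (-0.89, 0.000123). With Midostaurin, Ifnb1 was 11, 7 and 12 (-3.36, 1.12e-10), and Irf1 was lower (-1.06, 1.57e-05). With Momelotinib, Ifnb1 was 55, 65 and 58, below every DMSO sample but not called (-0.87, 0.414), and Irf1 was lower (-0.80, 0.0103). The study reports a reduced Ifnb1 with Momelotinib, alone among its JAK inhibitors. Low members thus stood beside a strongly lowered Ifnb1 with Midostaurin and beside an Ifnb1 within the DMSO range with Filgotinib.

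High Ifnb1 likewise stood beside raised members and beside members without a call. With Omipalisib, Ifnb1 was 1727, 2207 and 726 (Log2FC 3.67, adjusted p = 1.37e-13), and Irf1 had a Log2FC of 0.41 (0.0884). Mubritinib raised Ifnb1 to 1583, 1680 and 412 (3.23, 1.27e-09) with no member called and a member median of -0.25. With BGT226, Ifnb1 was 845, 378 and 137 (1.68, 0.000401) and Irf1 was higher (0.58, 0.0105). Ifnb1 was also higher with IMD0354 (1.87, 0.0041), Lapatinib (1.75, 0.00529), Lenvatinib (1.56, 0.0215) and Tofacitinib (1.45, 0.0199), with no member called. With the mitochondrial share (2.07% to 3.7% with Lenvatinib, 1.35% to 4.01% with Tofacitinib) and the block in the fit, Ifnb1 was not called for Lenvatinib (0.91, 0.188) or Tofacitinib (0.85, 0.146), and it was 1.10 (0.0241) for Lapatinib. Over the 59 group means, the mean of the members correlated with Ifnb1 at r = 0.423 (Spearman's rho 0.294), and at 0.194 without Midostaurin and Omipalisib. Within replicate numbers 1, 2 and 3 it was 0.367, 0.372 and 0.419. For Irf1 r was 0.589 (rho 0.497) and 0.558 without BGT226 and Midostaurin. Gapdh, a gene of glycolysis taken for contrast, gave 0.173. Its values in DMSO were low, at 108 to 208, where Ifnb1 was 75 to 262 and Irf1 was 10687 to 14275. It is thus no contrast at the level of Irf1. Among the members, Gbp5 followed Irf1 most closely (0.768) and Igtp less (0.34).

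**Figure D4:**
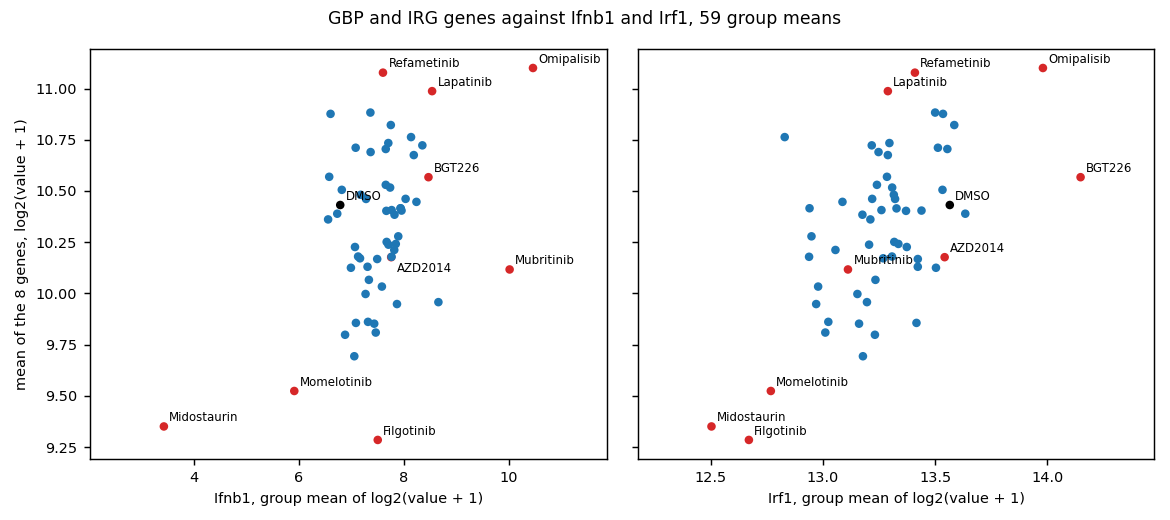
Mean of log2(normalized value + 1) over the 8 members against log2(normalized value + 1) of Ifnb1 and Irf1, 1 point per group (58 CKIs and DMSO, with DMSO in black and named CKIs in red). Mubritinib and Omipalisib both lie far right for Ifnb1 but apart in the members, and Pearson's r is 0.423 for Ifnb1 and 0.589 for Irf1.

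Of 17 other GTPase genes of these families, 13 were tested, and 9 were called lower with Filgotinib (median Log2FC -1.18), led by Gbp4 (-2.44, adjusted p = 0.000146) and the near-identical copies Tgtp1 (-1.95) and Tgtp2 (-1.94), whose reads cannot be told apart with certainty. With Midostaurin 6 were called lower (median -1.26), among them Gbp4 (-1.91), Tgtp1 (-1.75) and Tgtp2 (-1.74). With Omipalisib 3 of 13 were called higher where 17.5% of all genes were (median 0.72), namely Gbp6 (1.26, 0.0247), Gbp10 (1.26, 0.0328) and Irgq (0.97). With Momelotinib none passed the test (median -0.84). The medians of all genes were -0.04, 0.11, 0.12 and 0.11 for Filgotinib, Midostaurin, Omipalisib and Momelotinib. Of all genes, 14.6% were called lower with Filgotinib, 1.93% with Midostaurin and 0.409% with Momelotinib. The tested genes that were most like the mean of the members over the 59 groups were Gm12250 (r = 0.965), Gm5431 (0.957), Gm12185 (0.955), 9930111J21Rik1 (0.951), Daxx (0.951), 9930111J21Rik2 (0.942), AW112010 (0.941), Tgtp2 (0.938), Tgtp1 (0.938) and Ifi47 (0.938). The most unlike were Hps6 (-0.778), Fbxo5 (-0.776) and Cdca4 (-0.768).

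In the pathway that leads to the GTPases, 21 signalling genes were tested. Filgotinib lowered 11 and raised 1, where 6.1% of all genes were called higher, with Socs1, a feedback inhibitor of JAKs (-3.05), Irf8 (-2.23) and Stat2 (-1.39) lowest and a list median of -0.44. Midostaurin lowered 5, led by Ifnb1, Irf8 (-1.23) and Irf1, and Momelotinib lowered 2, Irf8 (-1.39) and Irf1. The medians were -0.11 and -0.15. The shares of all genes called lower were 14.6% with Filgotinib, 1.93% with Midostaurin and 0.409% with Momelotinib. Omipalisib raised 4, led by Ifnb1, Tlr4 (0.85) and Jak2 (0.75), and lowered 1, where 17.5% of all genes were called higher and 8.16% lower (median 0.21). Of 18 other interferon-stimulated genes, Filgotinib lowered 8 (Mx1 -1.72, Cmpk2 -1.61 and Mx2 -1.27), Midostaurin 10 (Rsad2 -2.88, Cmpk2 -2.83 and Ifit2 -2.19) and Momelotinib 3 (Cmpk2 -1.54, Rsad2 -1.34 and Ddx58 -0.72), and Omipalisib raised 7 (Rsad2 1.55, Oasl1 1.13 and Ifit1 1.11). The medians of this list were -0.72 with Filgotinib, -1.08 with Midostaurin, -0.66 with Momelotinib and 0.78 with Omipalisib.

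The genes that load the GTPases onto vacuoles or act after them were called in both directions. Of 18 tested, Filgotinib lowered 3 and raised 1, the lowered ones being Casp4, the gene for caspase-11 (-1.05, adjusted p = 0.0302), Atg3 (-0.66) and Gsdmd, which encodes the pore protein cleaved by caspase-11 (-0.62). These 3 of 18 are near the 14.6% of all genes called lower with Filgotinib. Midostaurin raised 1, Atg12 (0.32), where 2.63% of all genes were called higher, and lowered none. Omipalisib raised 5 and lowered 2, with Gabarapl1 (1.81) and Atg12 (1.80), which belong to the autophagy machinery, and Casp4 (1.08, 0.0205) highest, where 17.5% of all genes were called higher. The medians were -0.24 with Filgotinib, -0.01 with Midostaurin and 0.11 with Omipalisib. Of 11 LPS genes of the NF-kB type, Filgotinib lowered 1 and raised 3, Midostaurin lowered 3 and raised 1, Momelotinib raised 2, where 0.378% of all genes were called higher, and Omipalisib raised 8. The medians were 0.19, -0.13, 0.04 and 1.05. Of all genes, 6.1% were called higher with Filgotinib, 1.93% lower with Midostaurin and 8.16% lower with Omipalisib.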

How the data were processed

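RNA-seq libraries of polyadenylated RNA (SMART-seq2) were aligned by the authors with TopHat2 2.1.1 to mm10, with a single hit allowed per read. Blacklisted regions were removed with bedtools 2.29.2, and no removal of multi-mapping reads is stated for these libraries. Exonic reads per RefSeq gene were normalized by the authors on genes that did not vary across samples (R 3.6.2). The deposited values are normalized counts rounded to whole numbers, treated here as a score and called normalized values. Depth before normalization is unknown, so no counting interval is given. The 8 members and all lists were chosen with earlier results of these data known.

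Genes with a mean of at least 10 were tested with limma 3.58.1 (R 4.3.3), with a mean-variance trend, on log2(value + 1) in one fit of all 59 groups. Comparisons were of a CKI with all 6 DMSO samples, and p-values were Benjamini-Hochberg adjusted over 12714 genes. The fit was tested on simulated data. CKIs given in full were those with a called member, the JAK inhibitors, TG100572, Midostaurin and the CKIs discussed for Ifnb1 (14 in all); of each list, at most the 3 called genes of largest change were named for a CKI, and for likeness the 10 highest and 3 lowest correlations. The GBP to IRG ratios and the values of AZD2014, PF04691502 and the MEK inhibitors were added after values were seen. Tables and plots were made in Python 3.11.15 (matplotlib 3.10.9, SciPy 1.17.1, pandas 2.3.3, NumPy 2.4.6).

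Replicate numbers were taken to pair CKI and DMSO samples where all 3 correlations of same-numbered deviations exceeded 0.1. This held for 34 of 58 CKIs, Midostaurin, Momelotinib and Lapatinib among them. It did not hold for Filgotinib, Omipalisib, BGT226, AZD2014 or PF04691502. Their same-number differences and block fits thus rest on a pairing that did not meet this rule for every number. Alternatives were other pseudocounts, filters, each set of DMSO samples by itself, median-of-ratios scaling, a fit of the compared groups alone, no trend, the replicate block, the block with the mitochondrial share, and leaving out samples.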

Additional observations from a re-analysis of the deposited data

How the results depend on the processing

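Of 2384 refitted Log2FC of the members with the 14 CKIs given in full, 2307 kept their side of the threshold, 38 gained and 39 lost a call. The sign changed in 90 values of 30 member and CKI pairs, 0 of them called in either fit, with reported Log2FC of at most 0.40 in size and refitted ones of -0.59 to 0.28. The 5 lower and 3 higher calls became 3 and 3 with no filter, 2 and 3 against DMSO set 1 alone, 3 and 2 against DMSO set 2 alone, and 6 and 5 with only the compared groups. The replicate block gave 10 and 7, and with the mitochondrial share 14 and 4. Leaving out samples gave 1 to 9 lower and 0 to 7 higher calls, 0 higher without replicate 3 and 9 lower without DMSO set 1 replicate 3.

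By CKI, leaving out samples gave 1 to 5 called members for Filgotinib, 0 to 2 for Midostaurin, 0 to 1 for Momelotinib, 0 to 4 for Omipalisib, 0 to 1 for BGT226 and AZD2014, and 0 to 2 for Lapatinib and Pimasertib. For Filgotinib the replicate block gave 6, with or without the mitochondrial share. Its same-number correlations with DMSO (0.383, 0.00791 and 0.364 for numbers 1, 2 and 3) did not all exceed 0.1. Midostaurin gave 1 with no filter, 0 and 1 against DMSO set 1 or 2 alone, and 6 with the block and the mitochondrial share. Momelotinib gave 1 with the block, with or without that share. BGT226 gave 1 (Gbp5) with a pseudocount of 10, a filter at a mean of 50, and the block with or without that share. Lapatinib gave 2 with only the compared groups and 2 with the block. Omipalisib gave 4 with the block, and its same-number correlations, like those of BGT226, did not all exceed 0.1 either. The causes were not tested. Samples left out singly were chosen after seeing the data. Scaling by the median of ratios left the members at 5 and 3, while the calls over all genes went from 12195 lower and 18612 higher to 17675 and 12189.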
